A study of Mus musculus with 4 samples.

Results

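The genes described here are 9 genes of microglia, the resident immune cells of the nervous system: C1qa, C1qb, C1qc, Cx3cr1, Tmem119, Ctss, Aif1, Tyrobp and Csf1r. They were taken by symbol from a table of 44325 isoforms in 13439 genes with a symbol, and all 9 were found. They were chosen by their counts in earlier results of these data, which showed them in the Müller glia and rod columns while microglia have no column, so their levels are a description and were not tested. The retinas came from male wild-type C57BL6/J mice, which papain had dissociated, and the cDNA of 4 single-cell libraries was read as long nanopore reads. Of the libraries, 2 had no enrichment (1 at postnatal day 40, the other with no age in its labels), 1 is labelled CD73 enrichment (postnatal week 8) and 1 CD90.2 enrichment (postnatal month 4). The protocol in the labels describes removal of CD73-positive photoreceptors and positive selection of CD90.2-positive neurons on magnetic beads, and the series' design text names flow sorting for both. Cell numbers per column, cell typing and the treatment of doublets are not given in the sources used here. The table gives whole-number counts for 6 cell classes: rods, cones, Müller glia (MG) and the neurons named amacrine (AC), bipolar (BC) and retinal ganglion cells (RGC). No column names a library, so each class is 1 pooled sample without a replicate.

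Microglia enter the retina during development, tile its synaptic layers, survey the tissue with motile processes and take up debris and synaptic material. C1q, the recognition molecule that starts the classical complement pathway, is built from the chains encoded by C1qa, C1qb and C1qc. CSF1R is the receptor on which microglial survival depends, CX3CR1 is the receptor for the neuronal chemokine fractalkine, and TYROBP (DAP12) is a signalling adaptor that passes on signals from receptors such as TREM2. Several of these genes are also expressed by other macrophages.

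The 9 genes together held 82881 counts, most of them in the Rod column. The Rod column had 57321 of these counts (69.2%), the MG column 15286 (18.4%), BC 5923, AC 3730, cones 560 and RGC 61. The columns differ in depth from 3509890 counts (RGC) to 55437340 (Rod), so levels are given as CPM, the counts per 1000000 counts of a column. On that scale the order changed: the 9 genes summed to 2492 CPM in MG (exact 95% Poisson interval 2453 to 2532) and to 1034 CPM in Rod (1026 to 1042). They summed to 204 CPM in BC (199 to 209), 77.3 CPM in AC (74.8 to 79.8), 76.6 CPM in cones (70.4 to 83.3) and 17.4 CPM in RGC (13.3 to 22.3). AC and cones did not differ beyond their intervals, and the other neighbours in this order did. All intervals cover counting error only, since the sources used here do not say whether reads were collapsed to molecules. In pooled columns fewer microglia and less RNA per microglial cell cannot be told apart.

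**Figure D1:**
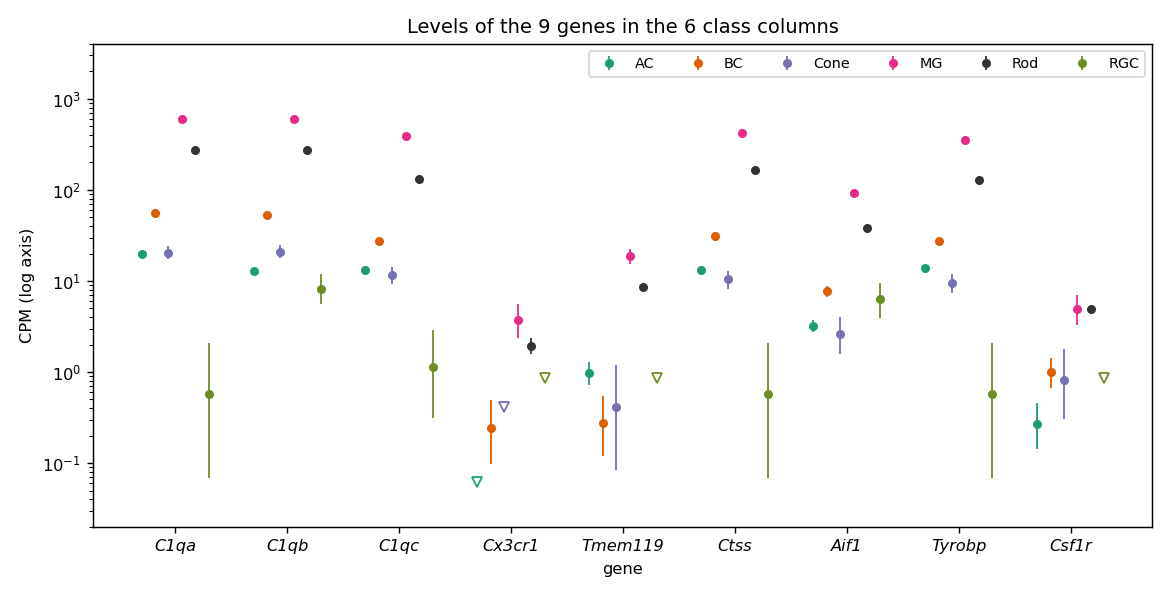
CPM of each of the 9 genes (log axis) in the 6 class columns, with exact 95% Poisson intervals as bars; open triangles mark columns with 0 counts at the limit that 3 counts would give. MG is the highest and Rod the next column for every gene, with the Csf1r points of MG and Rod nearly level at 4.89 and 4.87 CPM.

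The 3 chains of C1q lie side by side on chromosome 4 in mouse build GRCm38 (the same as mm10), all on the minus strand and within 18675 bases: C1qb from 136880129 to 136886187, C1qc from 136889804 to 136893065 and C1qa from 136895917 to 136898803. C1qa, the A chain, was at 607 CPM in MG, 277 in Rod, 55.2 in BC, 20.4 in cones, 19.9 in AC and 0.57 in RGC. C1qb, the B chain, was at 602 CPM in MG, 276 in Rod, 53.4 in BC, 20.9 in cones, 12.9 in AC and 8.26 in RGC. C1qc, the C chain, was at 390 CPM in MG, 133 in Rod, 27.4 in BC, 13.2 in AC, 11.6 in cones and 1.14 in RGC. All 3 chains thus had the same leading columns, MG, Rod and BC, in that order. The Rod level was 45.7% of the MG level for C1qa (exact 95% interval 44.1 to 47.3%), 45.9% for C1qb (44.3 to 47.6%) and 34.1% for C1qc (32.6 to 35.7%). C1qc stood below the other chains in Rod relative to MG by more than counting error.

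Cx3cr1 and Csf1r are the receptors among the 9 genes and had few counts. Cx3cr1 (chromosome 9, 119901616 to 120069879, minus strand) had 138 counts in all, 108 in Rod, 23 in MG, 7 in BC and none in the other columns. These were 3.75 CPM in MG (2.38 to 5.63), 1.95 CPM in Rod (1.60 to 2.35) and 0.24 CPM in BC. In AC, 0 of 48248340 counts fell on Cx3cr1, which allows up to 0.0622 CPM. Csf1r had 348 counts in all and was at 4.89 CPM in MG (3.30 to 6.98), 4.87 in Rod (4.31 to 5.49), 1.00 in BC, 0.82 in cones and 0.27 in AC, with 0 counts in RGC. Its MG level rests on 30 counts, and its Rod level was 99.6% of it, with an interval from 68.1 to 150.5%. MG and Rod were therefore not distinguishable for Csf1r, and with the columns thinned to equal depth MG was the higher in 9 of 20 draws.

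Tmem119 and Tyrobp encode membrane proteins, Tmem119 a surface protein used to tell microglia from other macrophages. Tmem119 (chromosome 5, 113793729 to 113800516, minus strand) was at 18.6 CPM in MG, 8.69 in Rod, 0.97 in AC, 0.41 in cones and 0.28 in BC, with 0 counts in RGC. It was the only 1 of the 9 genes with a higher level in AC (0.72 to 1.30 CPM) than in BC (0.12 to 0.54 CPM). Tyrobp (chromosome 7, 30413760 to 30417585, plus strand) was at 354 CPM in MG, 127 in Rod, 27.4 in BC, 13.8 in AC, 9.44 in cones and 0.57 in RGC. The Rod level was 46.8% of the MG level for Tmem119 (38.1 to 57.9%) and 35.9% for Tyrobp (34.2 to 37.7%).

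Ctss and Aif1 encode intracellular proteins, cathepsin S, a lysosomal protease that trims the invariant chain of MHC class II, and IBA1, a calcium-binding protein of the actin cytoskeleton that serves as the usual histological stain for microglia. Ctss (chromosome 3, 95526786 to 95556403, plus strand) was at 420 CPM in MG, 167 in Rod, 31.5 in BC, 13.1 in AC, 10.4 in cones and 0.57 in RGC. Aif1 (chromosome 17, 35170991 to 35176068, minus strand) was at 92.3 CPM in MG, 37.8 in Rod, 7.72 in BC, 6.27 in RGC, 3.21 in AC and 2.60 in cones. The Rod level was 39.8% of the MG level for Ctss (38.1 to 41.6%) and 40.9% for Aif1 (37.3 to 45.0%). Aif1 and C1qb were the members whose RGC levels stood out, and both are taken up again below.

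All 9 genes had their highest CPM in MG, and all 9 had Rod as the next column. Among 13383 genes with at least 10 counts, 19.4% were highest in MG and 5.48% were highest in MG with Rod next. Since the genes were picked for these columns, the counts are printed beside this background and nothing is read from them. Over the 9 genes, the Rod level was a median of 45.7% of the MG level, and over 9539 genes with at least 20 counts in MG and Rod together it was a median of 123%.

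The make-up of the counts of the 9 genes was then compared between columns. These are shares of counts and are not corrected for transcript length. The C1q chains made up 64.1% of the counts of the 9 genes in MG (exact Clopper-Pearson 95% interval 63.4 to 64.9%), 66.4% in Rod (66.0 to 66.8%), 66.6% in BC (65.4 to 67.8%), 69.1% in cones (65.1 to 72.9%) and 59.5% in AC (57.9 to 61.1%). Ctss made up 16.9% in MG, 16.2% in Rod, 15.4% in BC, 13.6% in cones and 16.9% in AC. Aif1 stayed between 3.39% in cones and 4.16% in AC over these 5 columns. Tyrobp made up 17.9% in AC, 14.2% in MG, 13.4% in BC, 12.3% in Rod and 12.3% in cones. The C1q share of AC lay below those of the other 4 columns by more than counting error, and that of MG lay below those of Rod, BC and cones in the same way.

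Within the C1q counts the columns were less alike. C1qc made up 19.4% of them in Rod (19.0 to 19.8%), 20.1% in BC (18.9 to 21.4%), 22.0% in cones (17.9 to 26.4%), 24.4% in MG (23.5 to 25.2%) and 28.8% in AC (26.9 to 30.7%). C1qb made up 40.2% in Rod, 39.3% in BC, 39.5% in cones, 37.6% in MG and 28.0% in AC (26.17 to 29.95%). Rod, BC and cones did not differ beyond their intervals for either chain, MG lay apart from Rod, and AC lay apart from the other 4. In RGC, C1qb had 29 of the 35 C1q counts (82.9%, 66.4 to 93.4%).

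**Figure D2:**
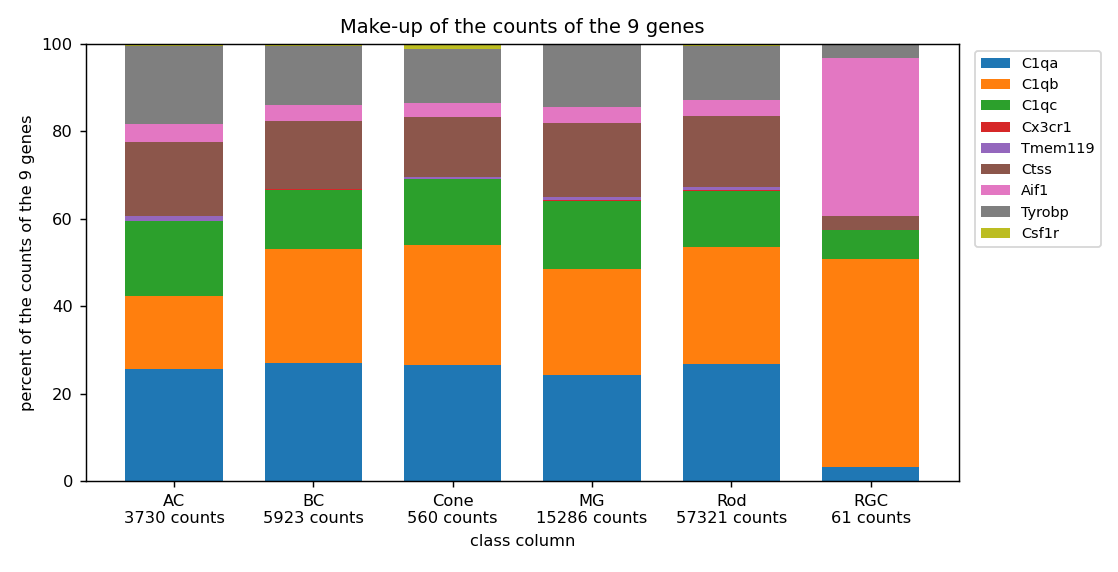
Each bar is a class column and shows the percent of the counts of the 9 genes that fell on each gene, with the number of counts under the bar. The C1q genes fill between 64.1% (MG) and 69.1% (cones) of the bars of BC, cones, MG and Rod, AC has less C1qb (16.7%), and RGC, with 61 counts, consists mainly of C1qb (47.5%) and Aif1 (36.1%).

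The isoforms were then read. The 9 genes had 11 isoforms: 7 genes had 1 isoform, and Ctss and Aif1 had 2. Of the 11, 10 carried the identifier of an Ensembl transcript, all of them protein-coding in GENCODE M21, and they held 99.97% of the counts. M21 lists 27 transcripts for these genes, and the other 17 were not analysed here. Since 7 genes had a single isoform and the second Aif1 isoform had 0 counts in MG and Rod, Ctss alone could have had different leading isoforms in these columns, and it had the same.

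All 10 modelled isoforms had exactly the introns of the M21 transcript of the same name. C1qa, C1qb and C1qc had 3 exons each, Cx3cr1 and Tmem119 had 2, Tyrobp 5, Aif1 6, Ctss 8 and Csf1r 21. The outer ends agreed less: 3 of the 10 models had all exons of their M21 transcript from end to end. Another 6 had both ends at annotated ends of the gene, but not both at the ends of the transcript named, and the Cx3cr1 model was the exception. The Cx3cr1 model measured 1268 nt against 3753 nt in M21, the Csf1r model 3659 against 4701 nt and the C1qc model 1014 against 1203 nt. The coding sequence lay wholly inside the model for 9 of the 10, and in Tyrobp 13 of its 342 coding bases lay outside it. How the ends were set is not given in the sources used here.

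Ctss was the 1 gene with 2 annotated isoforms in use. They differ at the start of exon 2, where ENSMUST00000015667.8 begins at 95529434 of chromosome 3 and ENSMUST00000116304.2 at 95529437, that is, at tandem splice acceptors 3 bases apart. The sequences below are shown because these bases are the whole difference between the isoforms inside the coding sequence. They run 5′ to 3′ from the start codon across the junction after the first 26 coding bases to 30 bases beyond it, from the GENCODE M21 transcripts, and the capitals mark the extra bases.
ENSMUST00000015667.8: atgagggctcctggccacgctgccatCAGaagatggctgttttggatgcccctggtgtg
ENSMUST00000116304.2: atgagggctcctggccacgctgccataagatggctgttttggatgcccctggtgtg
The coding sequences are 1023 and 1020 bases long, so the reading frame is kept. ENSMUST00000116304.2, without the extra bases, had 12424 of the 13473 Ctss counts, and ENSMUST00000015667.8 had 1049 (7.79%, 7.34 to 8.25%). The share of ENSMUST00000015667.8 was 8.20% in Rod (760 of 9272 counts, 7.65 to 8.77%), 6.59% in MG (170 of 2578, 5.67 to 7.62%), 7.10% in BC (65 of 915, 5.53 to 8.97%), 7.14% in AC (45 of 630, 5.26 to 9.44%) and 11.8% in cones (9 of 76, 5.56 to 21.3%). Intervals for all 5 columns overlapped save those of Rod and MG, which were just apart, and in RGC the gene had 2 counts, neither of this isoform.

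**Figure D3:**
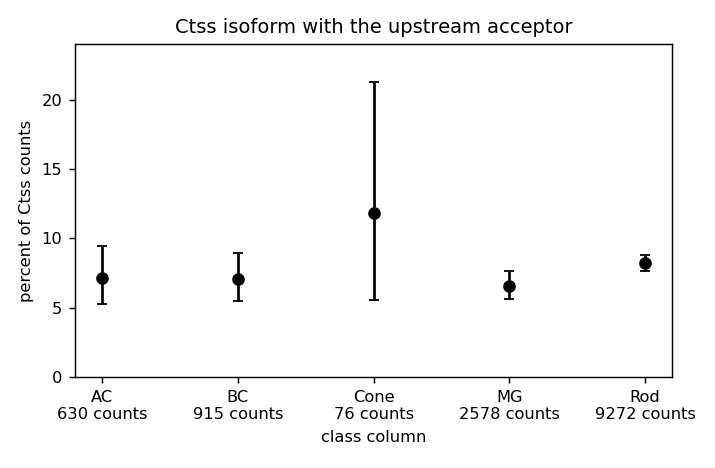
Percent of Ctss counts on ENSMUST00000015667.8, the isoform with the upstream splice acceptor, in 5 class columns, with exact Clopper-Pearson 95% intervals and the number of Ctss counts under each column. The values lie between 6.59% in MG and 11.8% in cones, the latter from 76 counts.

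Aif1 had 1 unannotated isoform, named by a read and without a transcript model. It had 22 counts, of which 21 were in RGC and 1 in AC. The annotated isoform, ENSMUST00000172693.7, had 3057 counts and only 1 of them in RGC. The Aif1 level in RGC was thus almost wholly that of the unannotated isoform. Without it, RGC held 40 counts of the 9 genes, 29 of them of C1qb.

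Promoter sequences, from 250 bases before to 50 bases after the gene start, were matched in RefSeq (GRCm38.p6) for 5 of the 9 genes, namely Aif1, C1qb, C1qc, Ctss and Cx3cr1. The RefSeq start was that of the deposited models for Ctss, 13 bases upstream of the model's start for C1qb and for Cx3cr1, 38 bases upstream for C1qc and 3421 bases upstream for Aif1. PU.1, the product of Spi1, is the transcription factor on which the myeloid lineage depends, and it binds purine-rich sites with a core GGAA. The motif GAGGAAGT, on either strand, was in the promoters of C1qc and Ctss, and in 3.20% of 32851 promoters of the same length. The shorter GAGGAA, which it contains, was in 4 of the 5 (Aif1, C1qb, C1qc and Ctss) and in 28.3% of all, and the ETS-IRF composite element, a joint site with an interferon regulatory factor, was in none of the 5 and in 2.72% of all. The promoters that hold the longer motif are shown, 5′ to 3′ on the strand of the gene, with the motif in capitals, here as its reverse complement.
C1qc, chr4:136892865-136893164, minus strand: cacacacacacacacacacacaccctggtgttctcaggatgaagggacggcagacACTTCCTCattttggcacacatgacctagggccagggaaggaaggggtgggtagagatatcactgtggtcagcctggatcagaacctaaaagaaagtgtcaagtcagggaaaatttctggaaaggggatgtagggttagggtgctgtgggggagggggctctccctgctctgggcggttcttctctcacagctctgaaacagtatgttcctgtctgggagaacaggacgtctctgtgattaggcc
Ctss, chr3:95526536-95526835, plus strand: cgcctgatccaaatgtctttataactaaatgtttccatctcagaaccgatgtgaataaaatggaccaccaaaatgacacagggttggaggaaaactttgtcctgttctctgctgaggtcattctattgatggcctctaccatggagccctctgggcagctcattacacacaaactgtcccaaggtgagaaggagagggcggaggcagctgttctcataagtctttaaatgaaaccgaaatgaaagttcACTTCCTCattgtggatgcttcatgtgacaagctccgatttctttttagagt
The motif begins 195 bases before the RefSeq start of C1qc, which is 44 bases before the M21 gene start printed above and 233 before the start of the deposited model. In Ctss it begins 2 bases before the start, which is the same in all 3 sources. A match is a description of the letters and not a binding site. Spi1 itself was at 38.0 CPM in MG and 9.83 CPM in Rod, and at no more than 0.72 CPM in the other columns.

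For comparison, 30 further microglial genes were read, of which 25 were in the table. Of the 25, 22 were highest in MG and 20 of these had Rod next, against the 19.4% and 5.48% of all genes given above. The Rod level was a median of 41.7% of the MG level over the 25 genes. P2ry12 and Fcrls, markers of resident microglia, had MG and Rod as the leading columns: P2ry12, a purinergic receptor, was at 1.96 CPM in MG and 0.52 in Rod, and Fcrls at 19.1 and 10.9 CPM. Siglech, a sialic acid receptor that signals through TYROBP, was at 4.73 CPM in MG and 4.46 in Rod, which could not be told apart (Rod 94.2% of MG, 64.0 to 144%), as for Csf1r. Among the genes of the list with the most counts, Ctsz, cathepsin Z, was at 398 CPM in MG and 147 in Rod, with 244 CPM in BC. Lgmn, the lysosomal protease legumain, was highest in Rod at 339 CPM, with 292 in BC and 211 in MG. The other exceptions were Lpcat2, at 65.6 CPM in cones, 64.6 in Rod and 54.3 in MG, and Sall1, at 1.44 CPM in Rod and 0.49 in MG. For Sall1, Rod and MG could not be told apart (Rod 295% of MG, 97.4 to 1461%).

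The genes with the column profile most like that of the 9 genes were found by the difference between shares of summed CPM over the 6 columns, among 11167 other genes with at least 50 counts. The summed profile was 63.9% in MG, 26.5% in Rod, 5.23% in BC, 1.98% in AC, 1.96% in cones and 0.445% in RGC. The nearest gene was Trem2, the lipid-sensing receptor that pairs with TYROBP, 1.03 percentage points away, with 168 CPM in MG and 70.1 in Rod. Fcer1g, an adaptor of Fc receptors, was also 1.03 points away, with 251 and 107 CPM. Next were Gpr84, a fatty acid receptor of myeloid cells, at 1.35 points, Unc93b1, a chaperone of endosomal Toll-like receptors, at 2.06 points and Rhoh, a small GTPase of blood cells, at 2.11 points. Pld4 (2.44 points), the tetraspanin gene Cd37 (2.75), Gmfg (3.67), the kinase gene Lyn (4.15) and the exchange factor gene Vav1 (4.21) completed the 10. Trem2, Fcer1g, Lyn and Vav1 were on lists of microglial genes or of partners of the 9 gene products, and the other 6 were on none of the lists.

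Distances of 10 points or less were found for 63 of the 11167 genes (0.564%), and for 9 of the 24 other microglial genes that had 50 counts. The median distance of all genes was 59.3 points. Of the 9 genes themselves, 8 lay between 1.53 points (Ctss) and 6.30 points (Cx3cr1) from their sum, which they help to form, and Csf1r lay 23.1 points away.

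**Figure D4:**
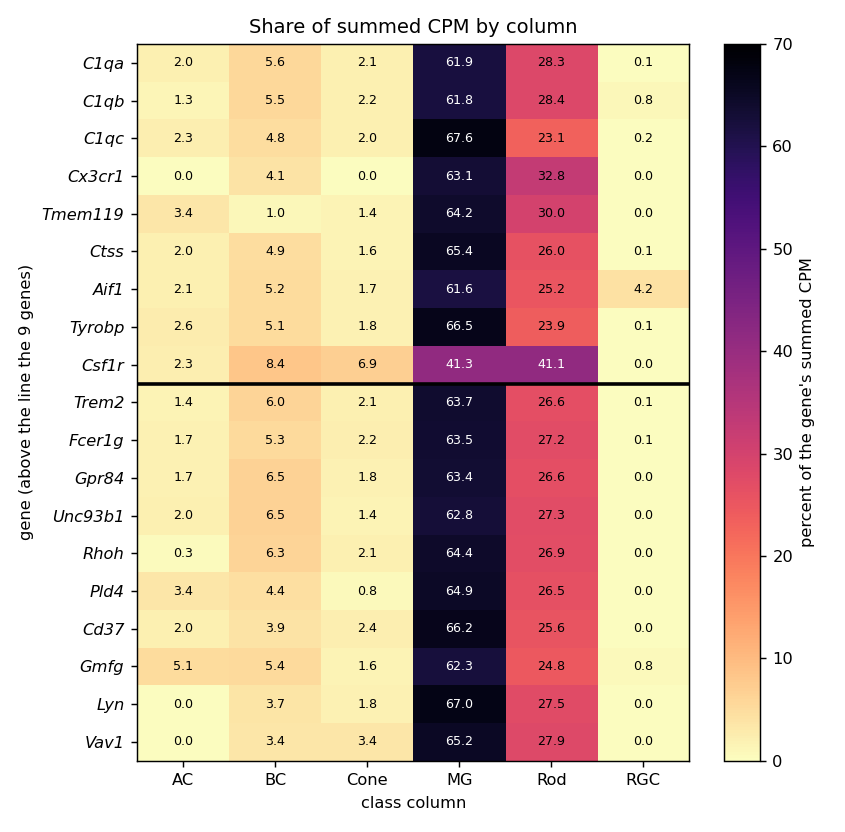
Percent of each gene's summed CPM in each class column, for the 9 genes (above the line) and the 10 genes with the most similar profile (below it). MG holds between 61.6 and 67.6% and Rod between 23.1 and 32.8% for 8 of the 9 genes, while Csf1r is at 41.3% in MG and 41.1% in Rod.

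Genes of antigen presentation were divided differently between MG and Rod from the 9 genes. Cd74, the invariant chain of MHC class II and a substrate of cathepsin S, was at 872 CPM in MG and 75.5 CPM in Rod, so that Rod was at 8.67% of MG (8.32 to 9.03%). H2-Aa, H2-Ab1 and H2-Eb1, chains of MHC class II itself, were at 10.8% (9.98 to 11.8%), 7.94% (7.42 to 8.48%) and 8.47% (7.94 to 9.03%). These 4 intervals lay below those of all 9 microglial genes, the lowest of which began at 32.6%. Genes of macrophages at tissue borders were nearer to the 9 genes: Pf4 was at 46.7% (37.8 to 58.1%), the lysozyme gene Lyz2 at 63.6% (58.3 to 69.5%) and Ms4a7 at 21.2% (17.2 to 26.2%). Lyve1, a receptor of some such macrophages, had 0 counts in MG and 40.7 CPM in BC, and Cbr2 had 36 counts in all. Of the 14 genes of this list 5 were not analysed here, nor were the 6 neutrophil genes and 7 of 10 lymphocyte genes; the other 3 lymphocyte genes, led by Trbc2 with 118 counts, had 0 counts in MG.

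Other cell types without a column were read in the same way. MG was also the highest column for all 5 red blood cell, 5 astrocyte, 5 endothelial and 5 pericyte genes found. It was so for 6 of 7 pigment epithelium genes, beside 19.4% of all genes. Haemoglobin genes and Alas2, of red blood cells, had Rod levels between 20.6% (Hbb-bs) and 32.6% (Hbb-bt) of MG, values below those of the 9 microglial genes. The intervals of Hba-a1 (16.4 to 58.8%), Alas2 (19.4 to 35.0%), Hba-a2 (30.8 to 32.9%) and Hbb-bt (31.8 to 33.4%) reached into that of C1qc, and that of Hbb-bs did not. Pericyte genes were between 0 and 0.548%, with Rgs5 at 0.539% and Acta2 at 0.247%. Endothelial genes were between 1.38% (Flt1) and 4.13% (Esam), and pigment epithelium genes between 0 and 3.48%, with Ttr at 0.427%. Astrocyte genes were between 1.27 and 4.37% except Aldoc, at 28.8%, which was at 459 CPM or more in every column.

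Marker genes of Müller glia and of rods were read in the columns named for the other class. All 12 Müller glia genes had counts in Rod and summed to 1575 CPM there, 2.85% of their 55330 CPM in MG; Apoe, the most abundant, was at 2.83%. All 8 rod genes had counts in MG and summed to 2155 CPM, 6.84% of their 31507 CPM in Rod. In RGC all 8 rod genes were at 0 counts. The 9 microglial genes in Rod were at 41.5% of their summed MG level. That value is not like the 2.85% and 6.84%, since neither column is named for microglia. The 6.84% is also the reverse ratio, MG relative to Rod. How far RNA or cells of other types in a column set these levels was not tested.

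**Figure D5:**
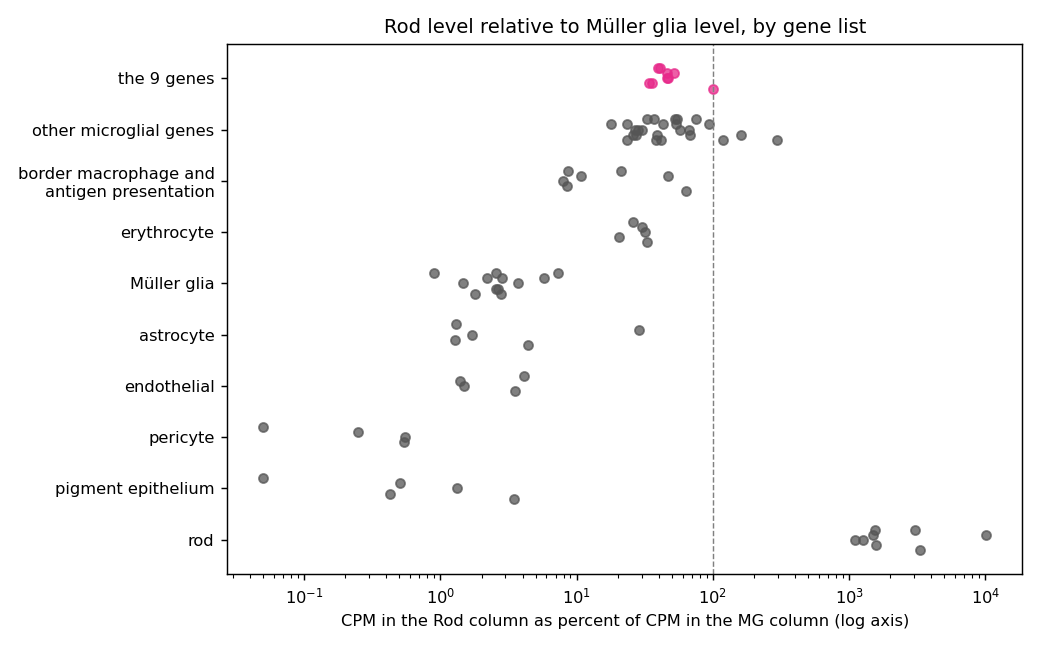
Each point is a gene with at least 20 counts in MG and Rod together, placed by its Rod CPM as percent of its MG CPM (log axis; genes with 0 counts in Rod are drawn at 0.05, and the dashed line marks equal levels). The 9 genes and the other microglial genes lie mostly between 20 and 100%, Müller glia genes below 8%, and rod genes at 1109% or more.

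Partners of the 9 gene products were read from a list of 15 genes, all in the table, of which 12 were highest in MG, beside the 19.4% of all genes. Among these 12, Trem2, Siglech, Fcer1g and Cd74 were also on lists read above, so the count is not a separate one. Csf1, the first ligand of CSF1R, had 30 counts, with 1.30 CPM in MG and 0 counts in Rod. Il34, its other ligand, was at 16.8 CPM in MG, 4.89 in AC and 0.018 in Rod. Cx3cl1, the ligand of CX3CR1, was at 10.9 CPM in AC, 8.26 in RGC, 2.48 in BC, 1.30 in MG and 0.29 in Rod. CX3CR1's gene and its ligand's gene thus had their highest levels in different columns. Csf1 and Il34 had theirs in MG, whereas for Csf1r MG and Rod could not be told apart (Rod 99.6% of MG, 68.1 to 150.5%). Lyn, a Src family kinase, and Ptpn6, the phosphatase SHP-1, were highest in MG, at 5.05 and 11.7 CPM, with Rod next at 2.07 and 2.60 CPM. Syk, the kinase that TYROBP recruits, had 18 counts, and the phospholipase gene Plcg2 had 30, all in AC. Cst3, the secreted cathepsin inhibitor cystatin C, was at 11998 CPM in MG and 11472 in Rod and at 1031 CPM or more in every column.

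Complement genes beyond C1q were read from a list of 28, of which 20 were in the table and 8 highest in MG, again beside 19.4% of all genes. Among these 8, C3ar1 and Clu were also on lists read above. The receptors C5ar1, C3ar1 and Itgb2, carried by phagocytes, had MG as the highest and Rod as the next column, with Rod at 64.2%, 23.4% and 56.2% of MG on 142, 56 and 78 counts. The proteases that complete the C1 complex were nearly unseen, C1ra with 22 counts, 14 of them in MG. C3, the central component, had 11 counts in all, each in AC. Inhibitors lay elsewhere: Serping1, the C1 inhibitor, was at 31.5 CPM in MG and 0.49 in Rod (1.55% of MG), and Cfi was at 9.41 CPM in BC. Of the 3 genes of the list with the most counts, Vtn was highest in Rod at 2570 CPM, Clu in MG at 6980 CPM and C1qbp in Rod at 218 CPM.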

How the data were processed

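Per the labels, single-cell cDNA of 4 male mouse retina libraries was sequenced as long reads. The deposited table holds whole-number counts, not normalized, of 44325 isoforms in 6 class columns, pooled over libraries. The build is mm10 per the submitters' processing notes; the aligner, counter, molecule collapsing and cell typing are not given in the sources used here. The members and lists were chosen with earlier results of these data known.

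Isoform counts were summed per gene by symbol through a table of gene names and scaled to CPM. Intervals are exact Poisson for CPM, exact Clopper-Pearson for shares and exact conditional for ratios, at the 95% level. With 1 pooled sample a class, no test was made. Structures and transcripts came from GENCODE M21 (GRCm38), promoters from RefSeq (GRCm38.p6). Named are the 9 genes, the 3 genes of each list with the most counts and the 10 genes nearest in profile, and others were named after their values were seen; some genes of the lists are not reported here by name. Alternatives were other scalings (trimmed mean of M-values, median of ratios), filters, thinning in 20 draws and other member sets. Python 3.11.15, pandas 2.3.3, numpy 2.4.6, scipy 1.17.1 and matplotlib 3.10.9 were used, and the scripts were tested on simulated data.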

Additional observations from a re-analysis of the deposited data

How the results depend on the processing

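The MG column held 63.9% of the summed CPM of the 9 genes, and 66.2% with trimmed-mean scaling, 69.1% with median-of-ratios scaling, 61.5% as a mean over the genes and 65.1% without the C1q genes. The Rod column held 69.2% of the counts, 71.0% as a mean over the genes and 67.8% without the C1q genes. Leaving out the C1q genes, or Csf1r, was chosen after seeing the data. The C1q share of counts was 77.1% in MG and 79.2% in Rod without Ctss. Annotated isoforms held 100% of counts among models with at least 2 exons, since the unannotated Aif1 isoform has no model. The other 35 of 44 values moved less than their counting interval or, for counts of genes, by less than 1.5 times. All 9 genes stayed highest in MG under each scaling and filter tried; thinned to the depth of RGC, the median over draws was 8.5, and Csf1r was the higher in MG in 9 of 20 draws. Median-of-ratios scaling changed the column size that counts are divided by, by 0.13 for Rod and -0.24 for MG on the log2 scale. Levels in Rod were thus lower and those in MG higher than in CPM. The Rod level was then 35.4% of the MG level for C1qa, 26.5% for C1qc and 77.3% for Csf1r. With trimmed-mean scaling these were 40.4%, 30.2% and 88.2%. For C1qa and C1qc both scalings gave values below the counting intervals printed above, which do not cover the choice of scaling. No paired analysis was possible because a class column pools its libraries, and for the same reason no library could be left out. Depth limits Cx3cr1, Csf1r and Tmem119 most, and every gene in RGC.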

Other observations

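Some genes carry C1q in their names but do not encode its chains. C1ql1 and C1ql2, secreted synaptic proteins with a C1q-like domain, were highest in AC, at 62.8 and 420 CPM, with 0 and 0.82 CPM in MG. C1ql3 was at 23.5 CPM in Rod, 22.3 in cones and 3.10 in MG, and C1qtnf5, known from the pigment epithelium, was at 45.3 CPM in MG and 0.32 in Rod.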
